A study of Homo sapiens
Mus musculus with 16 samples.

Results

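The genes described here are 37 enzyme and transporter genes of glycolysis, pyruvate use and the tricarboxylic acid (TCA) cycle, taken by symbol from the human table of a xenograft study, in which 23368 genes were listed. They comprise 19 genes of glucose uptake, glycolysis and lactate handling (called glycolysis below), 5 of pyruvate entry into mitochondria, and 13 of the TCA cycle. Glycolysis splits glucose into pyruvate in the cytosol, and the pyruvate is either reduced to lactate and exported or carried into mitochondria. There the pyruvate dehydrogenase complex turns it into acetyl-CoA, pyruvate carboxylase turns it into oxaloacetate, and the TCA cycle oxidises the acetyl groups. Many tumours take up glucose and release lactate even where oxygen is present, and several glycolytic genes are known targets of the oxygen-sensing factor HIF-1.

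The tumours were grown from the established human line ScaBER, a squamous carcinoma of the bladder, in athymic nude mice (Hsd:Athymic Nude-Foxn1nu), hosts that lack a normal thymus and its T cells. They were collected after 14 days of nintedanib at 40 mg/kg together with alpelisib at 25 mg/kg (combination), alpelisib (BYL719) alone at 25 mg/kg, nintedanib alone at 40 mg/kg, or vehicle (methylcellulose with Tween80), with 4 libraries in each of the 4 groups. Nintedanib blocks the kinases of the VEGF, FGF and PDGF receptors, which act on vessels and stroma, and alpelisib blocks PI3K alpha, which carries growth factor signals. The labels give no ages of the mice, and all groups rest on 1 cell line. The labels do not say whether libraries of a group came from separate animals, so p-values measure only the spread between these libraries, which may be partly technical.

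Libraries were read from the 3′ ends of transcripts and the reads were aligned to each species' genome on its own, which gave 1 table for tumour and 1 for host transcripts. Human depth ran from 8303617 reads (nintedanib 4) to 18568119 reads (combination 2). All 37 genes passed the filter (4 or more libraries at a normalised value of 1 or above), as did 17663 genes in all, and SUCLA2 had the fewest reads of the 37 in any library, at 31. Values below are the deposited normalised read counts, given in library order 1 to 4. They compare a gene with itself across libraries, not 1 gene with another. Differences are on the scale log2(value + 1), from limma fitted to all genes with Benjamini-Hochberg adjustment. In a bulk tumour, fewer cells of a type and less RNA per cell cannot be told apart. Markers of squamous carcinoma were present in every library, with summed values of 258211 to 480755.

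None of the 37 genes passed an adjusted p of 0.05 in limma in any of 8 comparisons: each treatment against vehicle, the combination against each single drug, the interaction, and each drug averaged over the other. Over all genes, 0.00566% passed in the combination against alpelisib and 0% in each of the other comparisons. No gene below is therefore reported as having changed in limma, and the values are a description with their error. At an unadjusted p under 0.05, 8 of the 37 genes stood out between the 8 libraries with nintedanib (combination and nintedanib alone) and the 8 without it (alpelisib alone and vehicle). Of these, 3 were higher with nintedanib (8.11% of the 37, against a background of 7.2% of all genes) and 5 were lower (13.5% of the 37, against 6.96% of all genes). The 3 higher genes, HK2, PGK1 and ENO2, all belong to glycolysis, and the 5 lower genes, PDHA1, PC, CS, OGDH and MDH2, all belong to pyruvate entry or the TCA cycle. The share of higher genes is near the background. The count of 8 was not stable: leaving out 1 library gave 3 (without vehicle 1) to 10 (without combination 2), with 4 without nintedanib 2, and 5 without each of combination 3, alpelisib 2, alpelisib 4 and nintedanib 3. CS, PGK1 and ENO2 were at that level in 16 of 16 such fits, HK2 in 7, PDHA1 in 9, PC in 5, OGDH in 14 and MDH2 in 12. The split by role did not hold in every fit: MDH1, a TCA cycle gene, was higher at that level in 3 of the 16. The lower genes alone fell to 1 (CS) without vehicle 1. They fell to 2 without each of combination 3, alpelisib 2 and nintedanib 2. CS, citrate synthase, had the smallest p among the 37, and DESeq2 on the recovered reads placed it past the adjusted threshold (log2 difference -0.50, adjusted p 0.0342), 1 member where 0.759% of all genes passed. The edgeR quasi-likelihood test placed none of the 37 past it in any comparison.

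**Figure D1:**
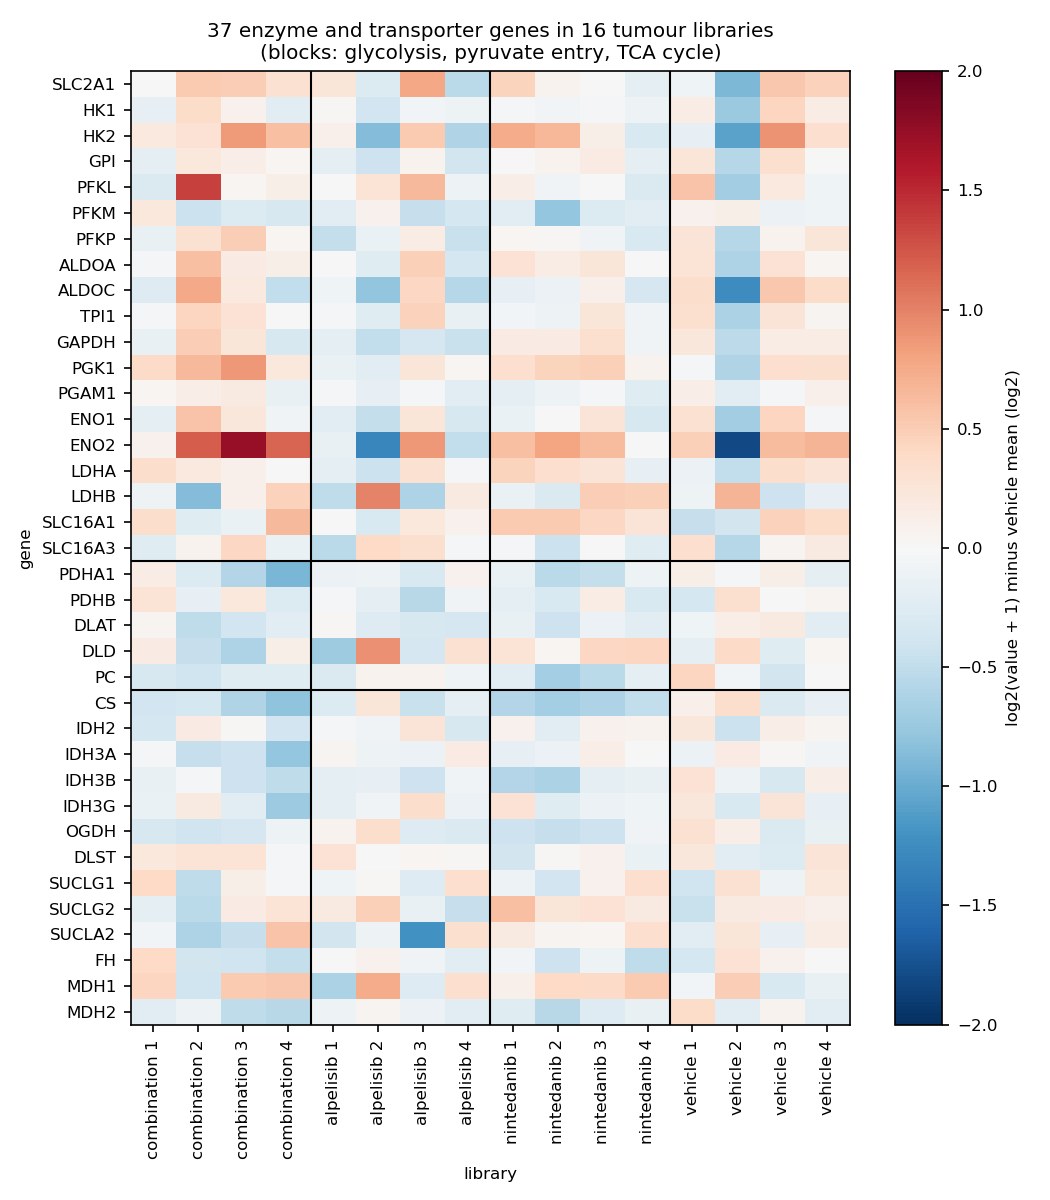
Heat map of the 37 genes (rows, in blocks of glycolysis, pyruvate entry and TCA cycle) in 16 libraries (columns). Colour gives log2(value + 1) minus the vehicle mean, red above and blue below. Vehicle 2 is blue in most glycolysis rows, and the CS row is blue in all 4 combination and all 4 nintedanib libraries. The CS row is also below the vehicle mean in alpelisib 1, 3 and 4 and in vehicle 3 and 4.

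Glucose uptake and the first committed steps came first in the pathway. SLC2A1 encodes the glucose transporter GLUT1. SLC2A1 read 12630.1, 18205, 17909 and 15731 in combination tumours, 15004, 10564, 21743 and 8731 in alpelisib tumours, 17252, 13416, 12703 and 11073 in nintedanib tumours, and 11972, 6800.4, 18403 and 17433 in vehicle tumours. Libraries of each group spanned a wide range, vehicle 2 and alpelisib 4 were lowest, and all groups overlapped. The log2 difference for SLC2A1 was 0.33 (SE 0.29, adjusted p 0.801) for the combination against vehicle and 0.18 (SE 0.21, adjusted p 0.729) for nintedanib averaged over alpelisib, and each was 0.03 without vehicle 2. HK2 encodes the inducible hexokinase that phosphorylates glucose. HK2 read 647, 694, 1019.8 and 861 in combination tumours, 611, 309, 818 and 373 in alpelisib tumours, 946, 895, 612 and 458 in nintedanib tumours, and 506, 269, 1054 and 714 in vehicle tumours. Alpelisib 2, alpelisib 4 and vehicle 2 were the 3 lowest libraries, and vehicle 3 was the highest. Averaged over alpelisib, nintedanib gave a HK2 difference of 0.50 (SE 0.24, adjusted p 0.351), and the combination against vehicle gave 0.48 (SE 0.34, adjusted p 0.736). Without vehicle 2, these were 0.32 and 0.13.

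Phosphofructokinase carries out the committed step, and its 3 subunit genes were all measured. PFKP encodes the platelet-type subunit. PFKP read 859.7, 1175, 1344 and 981 in combination tumours, 686, 866, 1051 and 697 in alpelisib tumours, 974, 972, 907 and 771 in nintedanib tumours, and 1142, 640.3, 998 and 1123 in vehicle tumours. Vehicle 2 was lowest of all 16 libraries and combination 3 highest. For PFKP, the combination differed from vehicle by 0.18 (SE 0.20, adjusted p 0.848), a sign set by vehicle 2: without that library the difference was -0.0148. Averaged over alpelisib it was 0.16 (SE 0.14, adjusted p 0.613), or 0.07 without vehicle 2, and the interaction, the combination's difference beyond the sum of the single-drug differences, was 0.48 (SE 0.28, adjusted p 0.831). PFKL encodes the liver-type subunit. PFKL read 493, 1551, 617 and 653 in combination tumours, 598, 733, 947 and 564 in alpelisib tumours, 660.2, 576, 601 and 493 in nintedanib tumours, and 901, 372, 694 and 572 in vehicle tumours. Combination 2 stood far above the other 15 libraries. The PFKL difference for alpelisib averaged over nintedanib was 0.28 (SE 0.20, adjusted p 1), among the 3 smallest p-values of that comparison, and it was 0.11 without combination 2. PFKM encodes the muscle-type subunit. PFKM read 251, 160.0, 179.8 and 174 in combination tumours, 188, 231, 158 and 171 in alpelisib tumours, 185, 127, 179 and 185 in nintedanib tumours, and 232, 235, 199.5 and 205 in vehicle tumours. All 4 nintedanib libraries lay below all 4 vehicle libraries, as for CS, and these were 2 of 37 genes against a background of 3.22% of all genes. PFKM was singled out after its values were seen, and its difference for nintedanib against vehicle was -0.38 (SE 0.21, adjusted p 0.475).

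The lower, energy-yielding part of the route starts with GAPDH, glyceraldehyde-3-phosphate dehydrogenase. GAPDH read 102007, 159595, 133662 and 91146 in combination tumours, 100213, 80668, 89383 and 83299 in alpelisib tumours, 126475, 126368, 140922 and 107642 in nintedanib tumours, and 133126, 78415, 125288 and 125828 in vehicle tumours. The 4 alpelisib libraries and vehicle 2 lay low, though combination 4 was lower than alpelisib 1. GAPDH alone took 0.867% ± 0.162 of human reads in combination tumours, 0.631% ± 0.0580 in alpelisib tumours, 0.874% ± 0.0861 in nintedanib tumours, and 0.809% ± 0.153 in vehicle tumours (SD, n = 4 each). The GAPDH difference was -0.36 (SE 0.30, adjusted p 1) for alpelisib against vehicle, 0.07 (SE 0.30, adjusted p 0.974) for the combination against vehicle and 0.28 (SE 0.21, adjusted p 0.557) for nintedanib averaged over alpelisib. The second of these turned to -0.11 without vehicle 2 and to -0.08 without combination 2. RefSeq lists 65 pseudogenes named after GAPDH, and whether reads were shared with them was not tested.

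PGK1 encodes phosphoglycerate kinase 1, which makes the first ATP of the route and is a known HIF-1 target. PGK1 read 5362, 6469.9, 7499.7 and 4780.2 in combination tumours, 3743, 3554, 4893 and 4245 in alpelisib tumours, 5194, 5621, 5702 and 4322 in nintedanib tumours, and 3993, 2717, 5177 and 5113 in vehicle tumours. Combination 2 and 3 were the 2 highest libraries, and vehicle 2 was the lowest, while the combination and vehicle still overlapped. PGK1 differed by 0.53 (SE 0.20, adjusted p 0.55) for the combination against vehicle, by 0.54 (SE 0.20, adjusted p 0.538) for the combination against alpelisib, and by 0.44 (SE 0.14, adjusted p 0.21) for nintedanib averaged over alpelisib. The first of these PGK1 differences was 0.33 without vehicle 2. PGAM1 encodes the next enzyme, phosphoglycerate mutase 1. PGAM1 read 7286, 7761, 7996 and 6404 in combination tumours, 6895, 6286, 6906 and 6135 in alpelisib tumours, 6171, 6555, 6882 and 5998 in nintedanib tumours, and 7734, 6119.9, 6975 and 7542 in vehicle tumours. It varied least of the 37 within groups, with a pooled SD of 0.12 on the log2 scale. The interaction for PGAM1 was 0.31 (SE 0.21, adjusted p 0.869), and RefSeq lists 13 pseudogenes named after it.

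ENO2 encodes enolase 2, known as neuron-specific enolase and also induced by low oxygen. ENO2 read 817, 1793, 2593 and 1737 in combination tumours, 696, 313, 1411 and 548 in alpelisib tumours, 1174, 1340.2, 1194 and 767 in nintedanib tumours, and 1081, 221, 1203 and 1240.1 in vehicle tumours. Its pooled within-group SD of 0.85 on the log2 scale was the widest of the 37 genes. Vehicle 2 lay far below the other 3 vehicle libraries, and combination 3 had the highest value. The ENO2 difference was 1.05 (SE 0.46, adjusted p 0.603) for the combination against vehicle, 1.32 (SE 0.46, adjusted p 0.537) for the combination against alpelisib, and 0.91 (SE 0.32, adjusted p 0.229) for nintedanib averaged over alpelisib. Without vehicle 2 the first was 0.45, and it was at an unadjusted p under 0.05 in 12 of 16 fits that each left out 1 library. Over all alternatives the last of these ENO2 differences was between 0.61 and 1.16, with adjusted p between 0.103 and 0.417.

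Lactate handling was represented by LDHA, LDHB and the monocarboxylate transporters SLC16A1 (MCT1) and SLC16A3 (MCT4). LDHA encodes the lactate dehydrogenase subunit that favours making lactate. LDHA read 54682, 49444, 46084 and 42802 in combination tumours, 37619.5, 31873, 53006 and 41924 in alpelisib tumours, 58391, 54209, 51309.9 and 38359 in nintedanib tumours, and 39571, 30658, 55088 and 51183 in vehicle tumours. The lowest value of all was in vehicle 2 and the highest in nintedanib 1. LDHA differed by 0.16 (SE 0.25, adjusted p 0.903) for the combination against vehicle (-0.00257 without vehicle 2) and by 0.23 (SE 0.18, adjusted p 0.569) for nintedanib averaged over alpelisib (0.15 without vehicle 2). SLC16A1 read 4034, 2672, 2883 and 4928 in combination tumours, 3124, 2550.0, 3655 and 3338 in alpelisib tumours, 4532, 4532, 4193 and 3751 in nintedanib tumours, and 2286, 2428, 4330.4 and 4069 in vehicle tumours. The nintedanib libraries were close together, and vehicle 1 and 2 lay below them. Nintedanib alone differed from vehicle by 0.43 (SE 0.22, adjusted p 0.449) in SLC16A1, the third smallest p of that comparison, or 0.28 without vehicle 1. SLC16A3 read 318, 395, 501 and 343 in combination tumours, 257, 496, 469 and 363 in alpelisib tumours, 365, 277, 371 and 316 in nintedanib tumours, and 473, 251, 391 and 424 in vehicle tumours. No group of SLC16A3 libraries stood apart from another. The SLC16A3 difference was 0.03 (SE 0.23, adjusted p 0.986) for the combination against vehicle, turning to -0.03 when values were scaled to the human plus mouse total and to -0.16 without vehicle 2, and -0.09 (SE 0.16, adjusted p 0.838) for nintedanib averaged over alpelisib.

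The glycolysis genes not yet described had log2 differences of 0.21 for ALDOA and 0.09 for ALDOC (aldolases), 0.08 for TPI1 (triosephosphate isomerase) and 0.15 for GPI (glucose-6-phosphate isomerase) with nintedanib averaged over alpelisib. In the same comparison they were 0.14 for ENO1 (the widely expressed enolase), 0.05 for HK1 (hexokinase 1) and 0.01 for LDHB (the other lactate dehydrogenase subunit). Across the list, 17 of 19 differences were above 0, with a median of 0.15, against 54.2% and a median of 0.03 over all genes tested. The combination against vehicle also had 17 of 19 above 0, with a median of 0.16, against 53.5% and 0.03 over all genes. Both comparisons use the combination and vehicle libraries, so they do not check each other. At an unadjusted p under 0.05, PGK1 and ENO2 were the 2 members higher in the combination than in vehicle (5.41% of the 37, against a background of 4.47%). No member was higher at that level with nintedanib alone against vehicle, where the background was 6.88%. Glycolysis there had 11 of 19 genes above 0 (median 0.02, against 51.7% and 0.02 over all genes), and that median turned to -0.03 in edgeR, to -0.02 in DESeq2 and to -0.07 with values scaled to the human plus mouse total.

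As a share of all human reads, the 19 glycolysis genes took 2.09% ± 0.229 in combination tumours, 1.64% ± 0.167 in alpelisib tumours, 1.99% ± 0.191 in nintedanib tumours, and 1.88% ± 0.390 in vehicle tumours (SD, n = 4 each). The 18 pyruvate entry and TCA cycle genes together took 0.0966% ± 0.00864 in combination tumours, 0.106% ± 0.0150 in alpelisib tumours, 0.0934% ± 0.00820 in nintedanib tumours, and 0.109% ± 0.00798 in vehicle tumours. Every pair of groups overlapped in both shares.

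**Figure D2:**
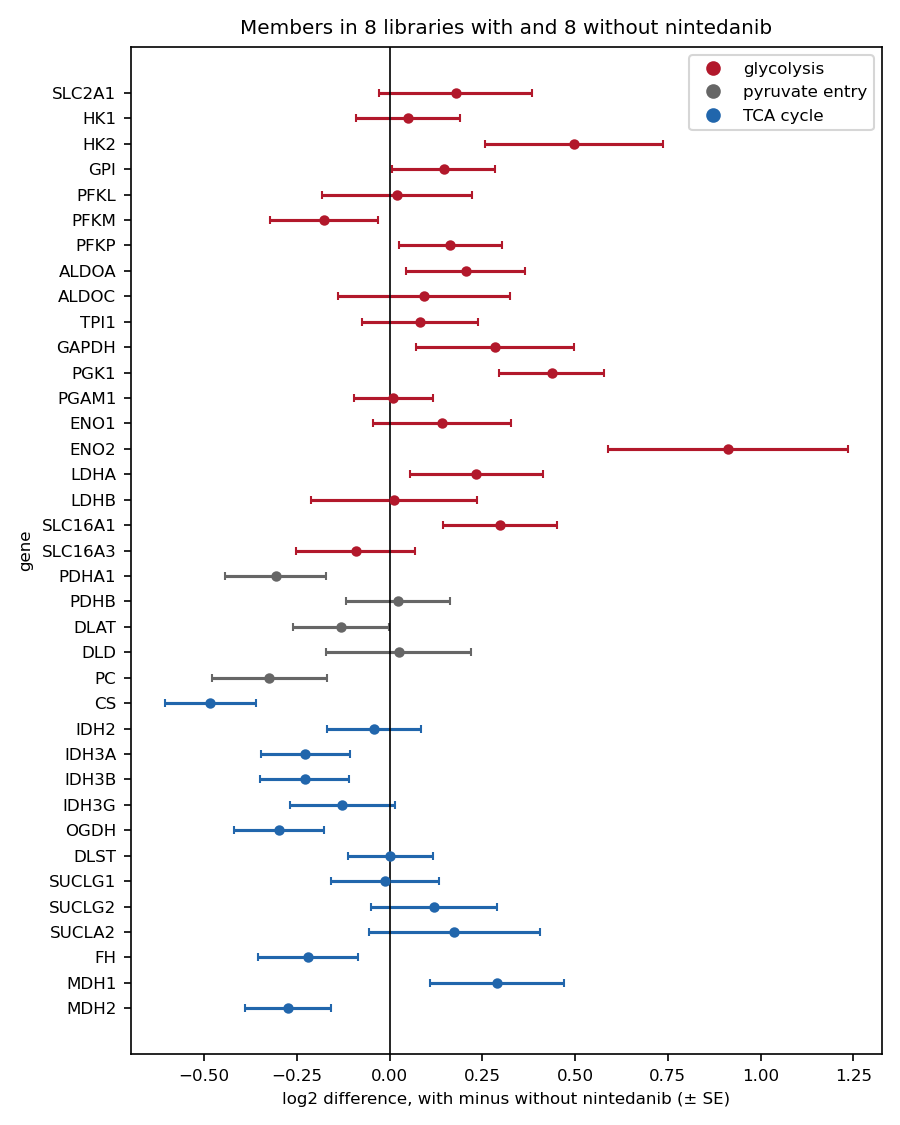
Log2 difference (x axis) between the 8 libraries with nintedanib and the 8 without it for each of the 37 genes (y axis), with points for the estimate and bars for ± 1 SE from limma. Of the 19 glycolysis genes 17 lie right of 0, and 9 of the 13 TCA cycle genes lie left of it, with CS farthest left at -0.48 and ENO2 farthest right at 0.91.

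Pyruvate entry runs through the pyruvate dehydrogenase complex, whose subunits PDHA1, PDHB, DLAT and DLD were measured, and through PC, pyruvate carboxylase. PDHA1 encodes the catalytic alpha subunit that phosphorylation switches off. PDHA1 read 839, 629, 506 and 403 in combination tumours, 699, 708, 617 and 807 in alpelisib tumours, 691, 523, 543 and 703 in nintedanib tumours, and 826, 735, 818 and 666 in vehicle tumours. Combination 1 was the highest of all 16 libraries, while combination 4 was the lowest, so the combination spanned the whole range. PDHA1 differed by -0.40 (SE 0.19, adjusted p 0.61) for the combination against vehicle, or -0.24 without combination 4, and by -0.31 (SE 0.14, adjusted p 0.316) for nintedanib averaged over alpelisib. DLAT encodes the acetyltransferase subunit. DLAT read 279.6, 189, 205 and 232 in combination tumours, 274, 226, 215 and 212 in alpelisib tumours, 243, 202, 248 and 231 in nintedanib tumours, and 252, 294, 304 and 231 in vehicle tumours. Its difference for alpelisib against vehicle was -0.22 (SE 0.18, adjusted p 1), and the groups overlapped.

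DLD encodes the dihydrolipoamide dehydrogenase shared with the 2-oxoglutarate dehydrogenase complex. DLD read 286, 185, 165 and 277 in combination tumours, 155, 482, 203 and 314 in alpelisib tumours, 309, 263, 339.9 and 343 in nintedanib tumours, and 225, 334, 215 and 261 in vehicle tumours. Alpelisib 2 was the highest and alpelisib 1 the lowest of all 16 libraries. The combination differed from nintedanib alone by -0.49 (SE 0.28, adjusted p 0.625) in DLD. PC read 120.4, 114, 127 and 127 in combination tumours, 123, 158, 158 and 142 in alpelisib tumours, 129, 93.1, 103 and 133 in nintedanib tumours, and 203, 145, 116 and 149 in vehicle tumours. Nintedanib 2 was lowest and vehicle 1 highest. Averaged over alpelisib, nintedanib gave -0.32 (SE 0.15, adjusted p 0.347) in PC and 0.02 (SE 0.14, adjusted p 0.96) in PDHB, the beta subunit of the dehydrogenase. As a list of 5 genes, pyruvate entry had medians of -0.26 for the combination against vehicle, -0.11 for alpelisib against vehicle and -0.22 for nintedanib against vehicle.

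In the TCA cycle, CS joins acetyl-CoA to oxaloacetate and the activity of its enzyme is often used as a gauge of mitochondrial content. CS read 1241, 1265, 1069 and 929.5 in combination tumours, 1348, 1924, 1184 and 1420.0 in alpelisib tumours, 1080.3, 1013, 1053 and 1148 in nintedanib tumours, and 1738, 2078, 1327 and 1440.2 in vehicle tumours. All 4 combination libraries and all 4 nintedanib libraries were below all 4 vehicle libraries, and alpelisib libraries lay on both sides of the lowest vehicle values. A lower group without overlap was found for CS alone of the 37 in the combination against vehicle, where 1.08% of all genes had it. CS differed by -0.54 (SE 0.17, adjusted p 0.505) for the combination against vehicle, by -0.60 (SE 0.17, adjusted p 0.276) for nintedanib against vehicle, and by -0.48 (SE 0.12, adjusted p 0.171) for nintedanib averaged over alpelisib. Alpelisib averaged over nintedanib gave -0.05 (SE 0.12, adjusted p 1) for CS. With and without nintedanib, the 2 sets of 8 CS libraries still overlapped, since alpelisib 3 was below combination 1 and 2, and 0.0453% of all genes were lower without overlap there. Leaving out each library in turn moved the averaged CS difference between -0.53 and -0.41, with adjusted p between 0.0664 and 0.373.

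The isocitrate dehydrogenase 3 complex makes 2-oxoglutarate and NADH, and IDH3A is its catalytic subunit. IDH3A read 487, 358, 371 and 288 in combination tumours, 513, 461, 457 and 554 in alpelisib tumours, 441, 458, 541 and 498 in nintedanib tumours, and 453, 554, 505 and 470.3 in vehicle tumours. Combination 2, 3 and 4 were the 3 lowest libraries of 16, and combination 1 lay among the other groups. IDH3A differed by -0.42 (SE 0.17, adjusted p 0.559) for the combination against vehicle, by -0.39 (SE 0.17, adjusted p 0.468) for the combination against nintedanib, and by -0.42 (SE 0.17, adjusted p 0.547) for the combination against alpelisib. It was the 1 member at an unadjusted p under 0.05 and lower in the combination than in nintedanib tumours (2.7% of the 37, against a background of 5.24%), and none was higher (background 4.03%). The count of lower members was 0 without combination 2, combination 4, nintedanib 3 or nintedanib 4, and DLST was higher at that level without combination 4. Its interaction was -0.39 (SE 0.24, adjusted p 0.846), its difference with nintedanib averaged over alpelisib was -0.23 (SE 0.12, adjusted p 0.39), and with alpelisib averaged over nintedanib it was -0.19 (SE 0.12, adjusted p 1). These IDH3A values share the combination libraries.

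IDH3B encodes a structural subunit of the same complex. IDH3B read 1273, 1369.9, 1061 and 989 in combination tumours, 1242, 1261, 1062 and 1338 in alpelisib tumours, 939, 912, 1227 and 1276 in nintedanib tumours, and 1722, 1308, 1129 and 1544 in vehicle tumours. Nintedanib 1 and 2 were the 2 lowest libraries and vehicle 1 the highest. IDH3B differed by -0.39 (SE 0.17, adjusted p 0.392) for nintedanib against vehicle and by -0.21 (SE 0.17, adjusted p 1) for alpelisib against vehicle. CS and IDH3B were the 2 members at an unadjusted p under 0.05 and lower with nintedanib alone than in vehicle (5.41% of the 37, against a background of 4.7%), a count of 2 that became 1 without nintedanib 1, nintedanib 2, vehicle 1 or vehicle 4, 3 without nintedanib 4 or vehicle 2, and 4 without vehicle 3.

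OGDH encodes the first subunit of the 2-oxoglutarate dehydrogenase complex. OGDH read 1501, 1414, 1483 and 1738 in combination tumours, 1964, 2390.2, 1561 and 1529 in alpelisib tumours, 1409, 1355, 1408 and 1780.5 in nintedanib tumours, and 2321, 2041, 1525 and 1692 in vehicle tumours. In the nintedanib group 3 libraries lay within a narrow band below all vehicle libraries, and nintedanib 4 lay above vehicle 3 and 4. OGDH differed by -0.29 (SE 0.17, adjusted p 0.687) for the combination against vehicle, or -0.19 without vehicle 1, and by -0.30 (SE 0.12, adjusted p 0.283) for nintedanib averaged over alpelisib. DLST encodes the succinyltransferase of that complex. DLST read 1065, 1114, 1115 and 908 in combination tumours, 1128, 909.9, 940.2 and 934 in alpelisib tumours, 709, 938, 971 and 835 in nintedanib tumours, and 1072, 793, 759.8 and 1104 in vehicle tumours. Alpelisib 1 had the highest value and nintedanib 1 the lowest. DLST differed by 0.29 (SE 0.16, adjusted p 0.623) for the combination against nintedanib and by 0.19 (SE 0.11, adjusted p 1) for alpelisib averaged over nintedanib.

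MDH2 encodes the mitochondrial malate dehydrogenase that closes the cycle. MDH2 read 2688, 2954, 2227 and 2148 in combination tumours, 2939.9, 3262, 2904 and 2688 in alpelisib tumours, 2679.9, 2136, 2632 and 2847 in nintedanib tumours, and 4053, 2706, 3302 and 2735 in vehicle tumours. Vehicle 1 was highest, and nintedanib 2 and combination 4 were lowest. MDH2 differed by -0.35 (SE 0.16, adjusted p 0.61) for the combination against vehicle, or -0.22 without vehicle 1, and by -0.27 (SE 0.12, adjusted p 0.298) for nintedanib averaged over alpelisib. MDH1, the cytosolic form, had a difference of 0.29 (SE 0.18, adjusted p 0.47) in that last comparison. The other TCA cycle members gave -0.22 for FH (fumarase), -0.13 for IDH3G, -0.04 for IDH2, -0.01 for SUCLG1, 0.12 for SUCLG2 and 0.17 for SUCLA2 (the last 3 are subunits of succinyl-CoA synthetase).

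**Figure D3:**
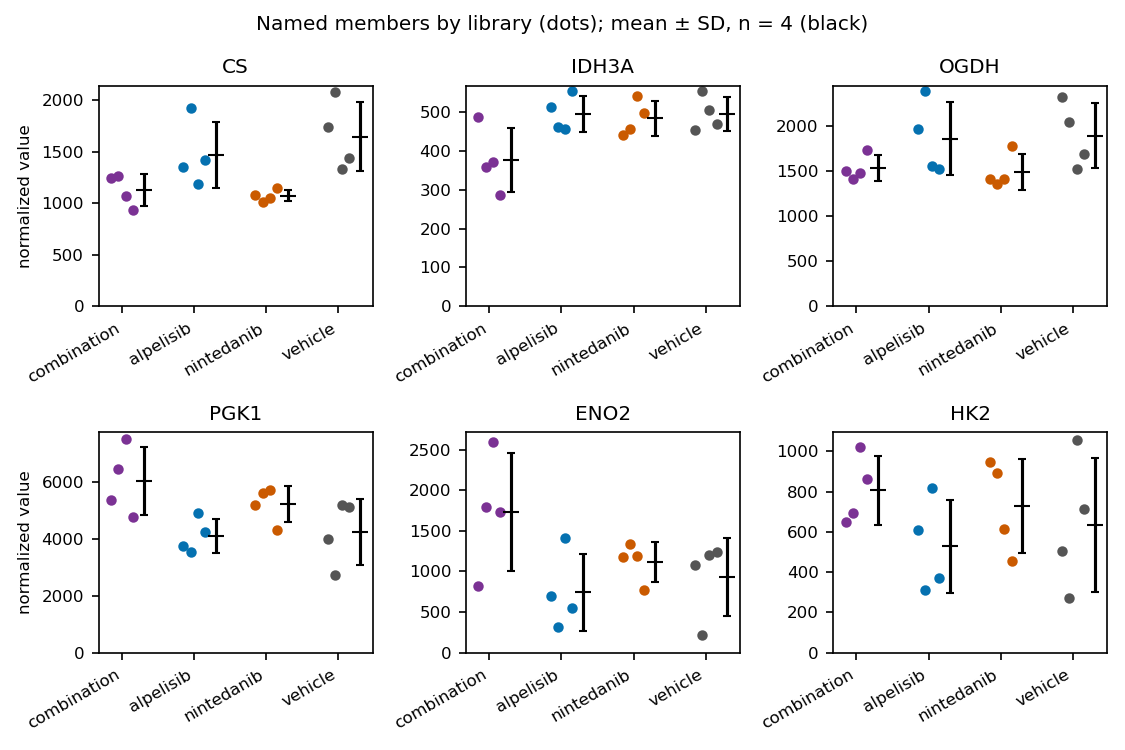
Normalised value (y axis, from 0) of CS, IDH3A, OGDH, PGK1, ENO2 and HK2 in each library (dots) of the combination, alpelisib, nintedanib and vehicle groups (x axis), with the mean ± SD in black (n = 4). CS lies below the vehicle libraries in all combination and nintedanib libraries, and IDH3A is low in combination 2, 3 and 4, while the other genes overlap between groups.

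Across the TCA cycle list, 11 of 13 differences were below 0 for the combination against vehicle, with a median of -0.21, against 46.5% and a median of 0.03 over all genes tested. Nintedanib averaged over alpelisib had 9 of 13 below 0 with a median of -0.13, against 45.8% of all genes. The medians were -0.03 for alpelisib against vehicle and -0.04 for nintedanib against vehicle, and -0.04 for the combination against nintedanib. The last of these turned to 0.00107 under quantile normalisation. At an unadjusted p under 0.05, PDHA1, CS, IDH3A and MDH2 were lower in the combination than in vehicle (10.8% of the 37, against a background of 3.69%). Leaving out 1 library gave 2 (without combination 3, combination 4 or vehicle 2) to 7 members in all for this comparison, in place of 6, and without vehicle 2 the 2 were CS and MDH2 (backgrounds 4.13% higher and 3.46% lower). With all libraries, no glycolysis gene was lower at that level, and no pyruvate entry or TCA cycle gene was higher.

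For alpelisib alone against vehicle, no member reached an unadjusted p under 0.05 in either direction, where 1.69% of all genes did so as higher and 0.793% as lower. Glycolysis had 14 of 19 genes below 0 (median -0.11, against 48.9% and a median of 0.01 over all genes). Alpelisib averaged over nintedanib also had no member at that level (backgrounds 2.21% higher and 1.93% lower), or 1 without combination 1 or alpelisib 2. Its glycolysis median was -0.0048, turning to 0.0055 under quantile normalisation, and ran from -0.0909 to 0.0491 when 1 library was left out. Set against alpelisib, the combination had 17 of 19 glycolysis genes above 0 (median 0.25, against 51.4% of all genes), with PGK1 and ENO2 higher (background 4.71%) and CS and IDH3A lower (background 3.74%) at an unadjusted p under 0.05. Those 4 members became 2 without combination 3 or alpelisib 4 and 8 without combination 1. The interaction had no member at that level (backgrounds 2.51% higher and 3.72% lower), or 1 without combination 1, alpelisib 1 or alpelisib 3 and 3 without vehicle 2 (PFKP, ALDOC and ENO2), with a glycolysis median of 0.21.

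The glycolysis values of the vehicle group were spread widely by 1 library. Vehicle 2 was the lowest of the 4 vehicle libraries in 16 of 19 glycolysis genes, where it was lowest in 25.5% of all genes. This library was singled out after its values were seen. A score, the mean over the 19 genes of log2(value + 1) minus the vehicle mean, was -0.61 in vehicle 2 and 0.15 to 0.28 in the other vehicle libraries. Without it, the combination against vehicle had 8 of 19 glycolysis genes above 0 and 11 below (median -0.01), and nintedanib against vehicle had a median of -0.21. Nintedanib averaged over alpelisib then had 12 of 19 above 0 with a median of 0.05, and 7 members at an unadjusted p under 0.05: PGK1, ENO2 and MDH1 higher (background 7.17%) and PDHA1, CS, OGDH and MDH2 lower (background 7.37%). Alpelisib against vehicle then had 18 of 19 below 0 with a median of -0.25, and HK1, GPI, PFKP, ALDOC and ENO2 were lower at an unadjusted p under 0.05 (background 0.99%). The interaction then had a median of 0.41, with PFKP, ALDOC and ENO2 higher at that level (background 2.29%). The TCA cycle medians without vehicle 2 were -0.25 for the combination against vehicle and -0.17 for nintedanib averaged over alpelisib, and no member passed the adjusted threshold in any of these fits.

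Within groups, glycolysis genes were low together in particular libraries. The lowest of its group was nintedanib 4 in 15 of 19 glycolysis genes (23.7% of all genes), alpelisib 2 in 11 (23.9%) and combination 1 in 10 (18.6%). The highest of its group was alpelisib 3 in 14 of 19 (29.2%). The same 4 low libraries, vehicle 2 among them, had the most mouse skeletal muscle transcript of their groups over a list of 12 muscle genes. The summed mouse values were 116283 in combination 1 (75.7 to 8152 in the other 3 combination libraries), 16773 in alpelisib 2 (105 to 4504 in the other 3), 198094 in nintedanib 4 (1194 to 1963 in the other 3) and 26929.5 in vehicle 2 (121 to 6633 in the other 3). The glycolysis score was -0.0066 in combination 1, -0.26 in alpelisib 2, -0.12 in nintedanib 4 and -0.61 in vehicle 2. Alpelisib 4, which had the least muscle transcript of its group (105), had a score of -0.25. In the human table, the same 12 muscle genes had 1.27 reads for each 100 in the mouse table in combination 1, and 1.05 in nintedanib 4. Single genes in nintedanib 4 ran from 0 for Ckm and 0.0577 for Acta1 to 7.07 for Myh4 and 15.1 for Mb. These ratios include human-table reads that were also present where mouse muscle reads were few. The 12 genes had 1998 human-table reads in combination 1 and 1878 in nintedanib 4. They had 338 (alpelisib 4) to 1253 (combination 2) in the other libraries, and combination 2 had only 116 mouse muscle reads. Host muscle's part in the glycolysis values was not tested. Without combination 1 and nintedanib 4, 11 members were at an unadjusted p under 0.05 for nintedanib averaged over alpelisib (backgrounds 7.85% higher and 8.5% lower), IDH3A, IDH3B and FH joining the 8 above, and none passed the adjusted threshold.

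Genes that respond to low oxygen stood beside glycolysis in these libraries. A list of 16 such genes outside glycolysis, among them CA9, VEGFA, LOX and BNIP3, had all 16 differences above 0 for nintedanib averaged over alpelisib. The median was 0.74, against 54.2% above 0 and a median of 0.03 over all genes tested. All but CA9, NDRG1 and ANGPTL4 were higher at an unadjusted p under 0.05 in limma (background 7.2%). The list medians were 0.72 for the combination against vehicle, -0.08 for alpelisib against vehicle and 0.74 for nintedanib against vehicle. A score of this list, built as for glycolysis, was -0.88 in vehicle 2 and -0.21, 0.54 and 0.55 in vehicle 1, 3 and 4. Vehicle 2 thus lowered the vehicle mean, and the list medians without that library are not given here. Summed values ran from 70953 to 119948 in combination tumours, from 49600.5 to 108509 in alpelisib tumours, from 65501 to 120694 in nintedanib tumours, and from 32651 to 116468 in vehicle tumours. LOX had the smallest p of the list, with 1.16 (SE 0.27, adjusted p 0.153), so none of the 16 passed in limma. The library lowest for the glycolysis score was also lowest for this list's score in each group: 0.47 in combination 1, -0.58 in alpelisib 2, 0.02 in nintedanib 4 and -0.88 in vehicle 2. The part of low oxygen in the glycolysis values was not tested.

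**Figure D4:**
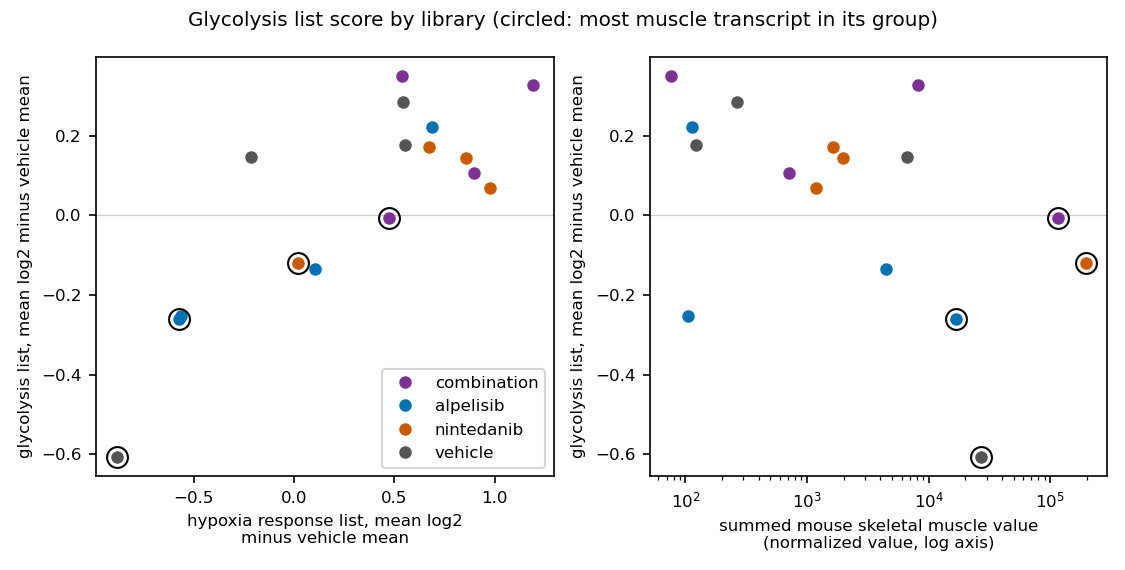
Glycolysis list score of each library (y axis, mean log2 minus the vehicle mean) against the score of the 16 low-oxygen genes (left x axis) and against the summed mouse skeletal muscle value (right x axis, log axis), coloured by group. Circles mark the library with the most muscle transcript of its group, and the circled vehicle 2 is lowest in both panels at -0.61.

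Of 44 other genes of the same routes, 40 were analysed here (PKM, MPC1, MPC2 and TIGAR were not), and none passed the adjusted threshold in limma in any comparison. With nintedanib averaged over alpelisib, 4 of the 40 were higher at an unadjusted p under 0.05 (10%, against 7.2% of all genes) and 6 were lower (15%, against 6.96%). The higher ones were SLC2A3, PGM1, BPGM and PDK1. PDK1 encodes a kinase that switches the pyruvate dehydrogenase complex off and is a known HIF-1 target. PDK1 read 274, 306, 479 and 731 in combination tumours, 274, 252, 270.0 and 202 in alpelisib tumours, 446, 473, 396 and 190.2 in nintedanib tumours, and 172, 229, 372 and 294 in vehicle tumours. Combination 4 was highest and vehicle 1 and nintedanib 4 were lowest. PDK1 differed by 0.60 (SE 0.22, adjusted p 0.231) for nintedanib averaged over alpelisib. SLC2A3 encodes the high-affinity glucose transporter GLUT3. SLC2A3 read 51.3, 35.8, 54.1 and 41.8 in combination tumours, 4.56, 6.27, 77.1 and 6.28 in alpelisib tumours, 27, 54.9, 58.2 and 35.3 in nintedanib tumours, and 12.4, 6.7, 40.7 and 23.7 in vehicle tumours. Alpelisib 1, 2 and 4 and vehicle 2 were near the bottom of the range, and alpelisib 3 was the highest library. The difference for SLC2A3 was 1.58 (SE 0.45, adjusted p 0.186), with an adjusted p that missed the threshold, and its reads may be shared with its near-identical paralogue SLC2A14.

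The host side was read from the mouse table, in which 34 of the 37 genes were matched by symbol and 33 tested. For each 100 tumour reads of the same gene, libraries had 0.706 to 5.65 host reads of Gapdh and 3.10 to 16.8 of Ldha. The range was 4.54 to 16.7 for Tpi1, 2.64 to 16.2 for Slc16a1 and 14.1 to 39.6 for Pgk1. Whether tumour reads entered the mouse table was not tested. No host gene of these routes passed an adjusted p of 0.05 in limma for nintedanib averaged over alpelisib, where 0.0972% of mouse genes did. All 17 host glycolysis genes had differences above 0 (median 0.41, against 52.5% of all mouse genes), and 6 were higher at an unadjusted p under 0.05 (background 4.4%): Tpi1, Gapdh, Pgk1, Eno2, Ldha and Slc16a1. Pgk1 (mouse) read 1178, 1254, 1678 and 1562 in combination tumours, 854, 729.9, 1269.6 and 685 in alpelisib tumours, 1579, 1490.1, 1317 and 1125 in nintedanib tumours, and 752, 649, 1040.4 and 1137 in vehicle tumours. Only vehicle 4 and alpelisib 3 among libraries without nintedanib reached the lowest values with it. Host Pgk1 differed by 0.68 (SE 0.15, adjusted p 0.113), and host Ldha by 0.56 (SE 0.15, adjusted p 0.178). DESeq2 placed these 2 past the adjusted threshold, with 0.65 for Pgk1 (adjusted p 0.0144) and 0.57 for Ldha (adjusted p 0.0181), where 0.892% of mouse genes passed. Host Aldoa read 13755 in combination 1 and 21609 in nintedanib 4, the muscle-rich libraries, and at most 4303 in any other library. Host Ldha (3904 and 4236), Gapdh (2514 and 3998), Tpi1 (1368 and 1440) and Pfkm (741 and 850) were also highest in these 2 libraries. Host Pgk1, Eno2 and Slc16a1 were instead lowest of their groups there. Host differences without these 2 libraries are not given here, and the part of host muscle in the host differences was not tested. The 12 host TCA cycle genes had 7 differences above 0 and 5 below (median 0.07). Among them Idh3a was higher at an unadjusted p under 0.05, by 0.52 (SE 0.22, adjusted p 0.505), where tumour IDH3A differed by -0.23. Host Idh3a was also highest in the 2 muscle-rich libraries, at 410 in combination 1 and 396 in nintedanib 4. The difference between tumour and host was not tested. A list of 4 mouse endothelial markers had summed values of 1329.8 ± 226 in combination, 1853 ± 281 in alpelisib, 1418 ± 439 in nintedanib and 2081 ± 335 in vehicle libraries (mean ± SD, n = 4 each). The ranges were 1073 to 1551.5 in combination, 1525 to 2159.6 in alpelisib, 910.4 to 1982 in nintedanib and 1726 to 2406 in vehicle libraries, and the part of vessel content in the tumour and host values was not tested.

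**Figure D5:**
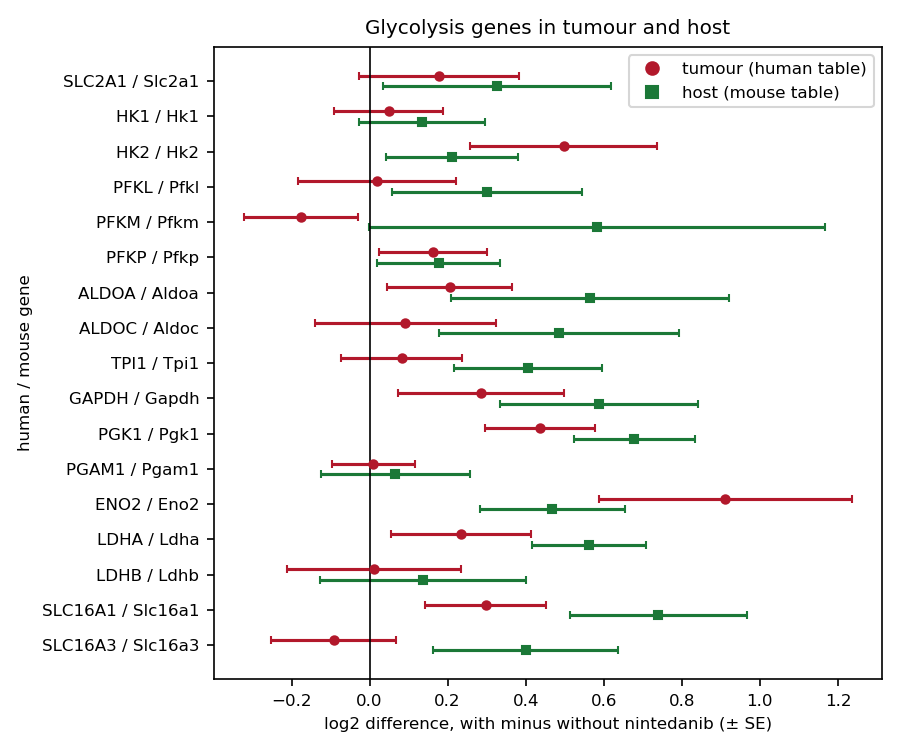
Log2 difference between libraries with and without nintedanib (x axis) for 17 glycolysis genes (y axis) in the human table (tumour, circles) and the mouse table (host, squares), with bars for ± 1 SE. All 17 host squares lie right of 0, while PFKM and SLC16A3 lie left of it in the tumour.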

How the data were processed

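The 16 libraries were prepared with a kit that reads transcript 3′ ends, per the labels' protocols. Reads were mapped with TopHat to hg19 and mm10, per the submitters' processing notes, and the counting tool, annotation and scaling were not given in the sources used here. The deposited signal values are read counts per gene divided by a size factor of each library. Whole reads could be recovered for 100% of values, within 0.01 of a read. Human and mouse tables were analysed separately. The test assumed for normalised values was used: limma 3.58.1 (R 4.3.3) with a mean-variance trend on log2(value + 1), 4 group means, genes at 1 or above in 4 or more libraries, and Benjamini-Hochberg adjustment over all genes tested. Alternatives were edgeR 4.0.16 and DESeq2 1.42.0 on the recovered reads, other scalings, filters and pseudocounts, and leaving out each library. The code was tested on simulated data with planted changes larger than most differences given here, so that test does not cover small differences.

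Members and gene lists were chosen with earlier results of these data known. Genes named with full values were any past the threshold, the 3 with the smallest p in each comparison, and 11 that represent roles (SLC2A1, HK2, PFKP, GAPDH, LDHA, SLC16A3, PDHA1, CS, IDH3A, OGDH and MDH2). PFKM, PC and the genes outside the 37 were named after their values were seen. Comparisons share libraries, so their results are not independent. Symbols of all 37 members were found in RefSeq (gene table of GRCh38.p14, used for names only), and 17 had at least 1 pseudogene named after them. Read numbers bound counting error only.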

Additional observations from a re-analysis of the deposited data

Results flagged for a closer look

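Among the 96 sets of 4 libraries checked for a library far from the other 3 of its group, 7 had one, and chance gives about 1 in 20. Vehicle 2 was far below the other vehicle libraries for ENO2 (221), for GAPDH (78415) and for the glycolysis list score (-0.606). Alpelisib 1 was above the other alpelisib libraries for DLST (1128). Nintedanib 4 was above the other nintedanib libraries for OGDH (1780), and nintedanib 2 was below them for the pyruvate entry list score (-0.38). Combination 1 was above the other combination libraries for the pyruvate entry list score (0.0649).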

How the results depend on the processing

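For 49 named gene results, 1262 of 1274 values under other settings kept their direction and their side of the threshold, 8 changed sign and 4 moved past the threshold. Part of this count was fixed in advance. Dropping the mean-variance trend, changing the filter or adding the replicate block cannot alter a log2 difference here. No named result passed the threshold with the main settings, so keeping its side only means staying short of it. The sign changes were in small differences between the combination and vehicle. Leaving out each library in turn gave -0.11 to 0.194 for GAPDH, -0.00257 to 0.279 for LDHA, -0.0148 to 0.283 for PFKP and -0.158 to 0.145 for SLC16A3. SLC16A3 was also -0.0301 with values scaled to the human plus mouse total and -0.00448 in edgeR. With DESeq2 and nintedanib averaged over alpelisib, 1 tumour member (CS) and 2 host genes (Pgk1 and Ldha) passed the adjusted threshold. Leaving out libraries moved the number of host genes past it between 0 and 1, the 1 being Pgk1 without alpelisib 3 (0.772, adjusted p 0.0367). The host glycolysis median for nintedanib against vehicle ranged from 0.0367 (without vehicle 2) to 0.434. For the combination against alpelisib, the pyruvate entry median ranged from -0.302 to -0.0501 and the TCA cycle median from -0.221 to -0.0438. The TCA cycle median ranged from -0.142 to 0.0108 for alpelisib against vehicle and from -0.145 to -0.00751 for nintedanib against vehicle. The cause of these shifts was not tested, and fits that leave out a library also rest on fewer libraries. Libraries of different groups shared only a replicate number: their deviations correlated between -0.22 and 0.15, with 2 of 24 pairs over 0.1, and 4 of 16 libraries correlated best with their own number. The replicate number as a block left 0 members past the threshold in every comparison, with 7 instead of 8 members at an unadjusted p under 0.05 for nintedanib averaged over alpelisib. No scaling moved the median of all genes by more than 0.1 on the log2 scale. Settings that leave out the muscle-rich libraries were chosen after seeing the data.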

Other observations

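Genes that link the TCA cycle to the cytosol were among the 40 other pathway genes. GOT1 encodes the cytosolic aspartate aminotransferase, and SLC25A11 the mitochondrial 2-oxoglutarate and malate carrier, both parts of the malate-aspartate shuttle. GOT2, MDH1 and MDH2 also belong to that shuttle, and they did not all go the same way. MDH1 differed by 0.29 for nintedanib averaged over alpelisib, opposite in direction to GOT1 and SLC25A11, while MDH2 was lower, as given above. GOT2 differed by -0.28 for nintedanib against vehicle and by -0.04 for the combination against alpelisib. GOT1 read 1109, 909, 679 and 537 in combination tumours, 1041, 1095, 912 and 1178 in alpelisib tumours, 812, 583, 848 and 813 in nintedanib tumours, and 1379, 1292, 1162 and 976 in vehicle tumours. All 4 nintedanib libraries lay below all 4 vehicle libraries, as in 3.22% of all genes, and combination 1 lay between vehicle 4 and vehicle 3. The GOT1 log2 difference was -0.61 (SE 0.20, adjusted p 0.505) for the combination against vehicle and -0.55 (SE 0.14, adjusted p 0.171) for nintedanib averaged over alpelisib in limma. SLC25A11 read 542, 713, 546 and 373 in combination tumours, 695, 945, 848 and 679.6 in alpelisib tumours, 671, 484, 719 and 725 in nintedanib tumours, and 1011, 715, 694 and 639.8 in vehicle tumours. Combination 4 was the lowest of the 16 libraries and vehicle 1 the highest. SLC25A11 differed by -0.40 (SE 0.14, adjusted p 0.234) for nintedanib averaged over alpelisib. In the same comparison, the difference was -0.52 (SE 0.20, adjusted p 0.254) for ME1 (cytosolic malic enzyme), -0.28 (SE 0.13, adjusted p 0.337) for ACLY (ATP citrate lyase) and -0.33 (SE 0.16, adjusted p 0.35) for SDHA (succinate dehydrogenase subunit A). Against vehicle, ME1 differed by 0.42 with alpelisib alone, by -0.37 with nintedanib alone and by -0.25 with the combination. None of these genes passed the adjusted threshold in limma, and they were described after their values were seen.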
